A study of Mus musculus with 6 samples.

Results

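The mitochondrial ribosomal proteins are the nuclear-encoded proteins of the ribosome that works inside mitochondria. They were taken as every gene symbol that begins with Mrpl or Mrps followed by a number, leaving out 6 pseudogene symbols, and 78 of the 55363 symbols in the tables met that rule. Of these, 49 carry an Mrpl symbol, the series named for the large subunit, and 29 carry an Mrps symbol, the series named for the small subunit. RNA was sequenced from the whole oviduct of pregnant female mice, 6 to 8 weeks old at mating, on gestational day 3, in 3 libraries labelled Mettl3 f/f and 3 labelled Mettl3 d/d. The Mettl3 protein is the catalytic part of the enzyme that writes N6-methyladenosine on RNA. In the usual notation f/f stands for both alleles of the gene carrying loxP sites and d/d for both alleles deleted. No source used here gives the deleted exons, the Cre driver or the strain, so which oviduct cells lost the gene is not known here. Nothing in the labels ties the replicates to separate animals, so the p-values speak only of variation among these samples, which may be technical.

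The mitochondrial ribosome translates the few messenger RNAs made from mitochondrial DNA, all of which code for subunits of the respiratory chain and the ATP synthase. Its ribosomal RNAs are made from mitochondrial DNA, while its proteins are encoded in the nucleus, translated in the cytosol and imported. The small subunit reads the messenger RNA and the large subunit joins the amino acids. Some of its proteins have named bacterial counterparts, and others are peculiar to mitochondria. The oviduct carries the early embryo with beating cilia and smooth muscle, both of which use ATP.

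The targeted gene did not fall at the level of the whole gene. Mettl3 was at 11.8, 12.1 and 13.2 FPKM (fragments mapped to the transcript, per kilobase of its length and relative to all mapped fragments) in f/f replicates 1 to 3 and at 19.8, 20.3 and 24.5 in d/d replicates 1 to 3, so every library labelled d/d was higher (log2 change 0.75, SE 0.12, limma adjusted p = 0.0145, and 0.0688 without f/f replicate 2). The exact permutation test gave p = 0.1, the smallest that 3 libraries against 3 allow. A gene-level value can hold transcripts that lack the deleted exons, and these tables have no exon values, so directions below are those of the libraries as labelled. The secretory marker Ovgp1, the oviduct-specific glycoprotein, was at 2651 to 5690 FPKM in all 6 libraries, and the steps of the low values implied 16600000 to 17800000 fragments per library. The first f/f library and the first d/d library stood at the ends of the second principal component (22.3% of the variance, scores 41.4 and -30.3), and the members' count and median and the calls that turn on them are given without both.

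The mitochondrial ribosomal proteins were higher on balance in d/d, by a small amount spread over many genes. Of the 78 members, 76 had a mean of at least 1 FPKM and were tested. The log2 change (d/d mean minus f/f mean of log2(FPKM + 1)) was above 0 in 60 of the 76 (78.9%), against 48.8% of all 15438 features tested. Its median was 0.21 over the members and -0.01 over all features. With limma, 8 members rose and 0 fell at an adjusted p under 0.05 (10.5% of the 76), beside 6.04% of all features called higher and 4.97% called lower. At an unadjusted p under 0.05, 28 members were higher and 2 were lower, against 15.4% and 14.2% of all features. All 3 d/d libraries lay above all 3 f/f libraries for 27 members (35.5%, against 18.1% of all features) and below them for 3 members (against 17.4%), and for 46 members the groups overlapped. Group means differed by less than 1.2-fold for 36 of the 76 members. They were higher in d/d by 1.5-fold or more for 11 members and lower by 1.2-fold or more for 4, and these 4 did not pass the test. In RNA from a whole organ, a change in the number of cells of a type and a change in RNA per cell cannot be told apart.

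**Figure D1:**
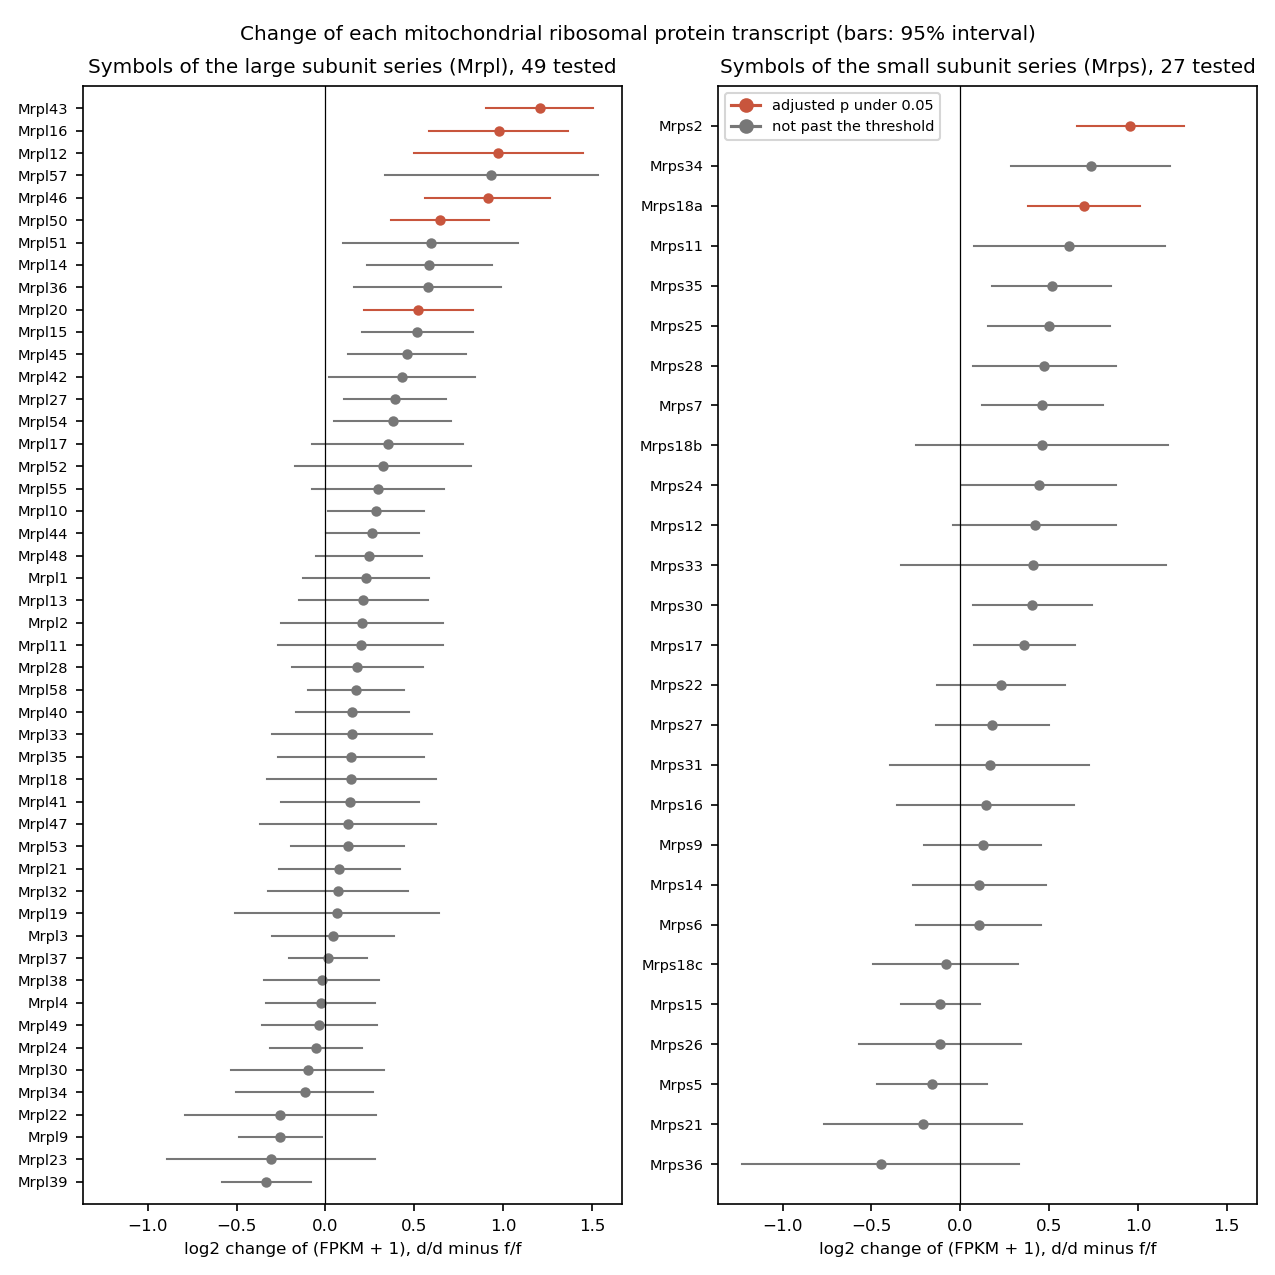
Log2 change of each of the 76 members tested, d/d minus f/f on the log2(FPKM + 1) scale (horizontal axis), with its 95% interval, for Mrpl symbols (left) and Mrps symbols (right). The 8 members past the threshold are marked, and 60 of 76 points lie to the right of 0.

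The number of members called rested on single libraries, as did the number over all features. Without f/f replicate 2 it fell to 2 members, Mrpl43 and Mrps2, while the number over all features fell from 1701 to 308 (1.19% called higher). Dropping d/d replicate 1, 2 or 3 gave 4, 4 and 3 members, beside 3.03%, 2.35% and 2.52% of all features called higher. Dropping f/f replicate 1 gave 7 (6.13% of all features higher), and dropping f/f replicate 3 gave 6 (2.10%), of which 4 were among the 8. Leaving out f/f replicate 1 and d/d replicate 1 together gave 5 called members of 76, all among the 8, a share near the 5.23% of all features called higher in that fit. The members' median log2 change was then 0.15.

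The largest rise was that of Mrpl43, a large-subunit protein with no bacterial counterpart, on chr19:45004829-45006442 (GRCm38, minus strand). It was at 28.3, 30.7 and 31.5 FPKM across f/f replicates 1 to 3, against 64.6, 65.9 and 83.7 across d/d replicates 1 to 3. The lowest d/d library was thus above the highest f/f library by a wide margin, and the group means were 30.2 ± 1.65 (SD, n = 3) and 71.4 ± 10.7 (SD, n = 3). This was a 2.37-fold rise (log2 change 1.21, SE 0.13, limma adjusted p = 0.00577), called in all 18 alternative settings, among them each library left out in turn. The gene overlaps Twnk, which encodes the mitochondrial DNA helicase, on the opposite strand over 780 bases, and shares 21.5% of its 50-base stretches with Twnk transcripts. Whether counting used strand is not given in the sources used here, and reads of that stretch cannot be assigned. Twnk itself was at 9.35 ± 1.35 FPKM (SD, n = 3) under the f/f label and 11.96 ± 1.46 under the d/d label, a log2 change of 0.33 that did not pass the test (limma adjusted p = 0.199).

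Mrps2, the counterpart of the bacterial small-subunit protein S2, lies on chr2:28468066-28471178 (plus strand). Its level was 11.8, 13.3 and 11.4 FPKM in the f/f libraries and 21.7, 24.4 and 27.9 in the d/d libraries. The groups were well apart, and none of its 50-base stretches occurs in another gene (log2 change 0.96, SE 0.13, limma adjusted p = 0.0102). It kept its call with each library left out.

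Mrpl16, the counterpart of bacterial L16, which lies near the site of peptide bond formation, is on chr19:11770391-11774960 (plus strand). It was at 12.8, 14.8 and 19.4 FPKM across the f/f libraries and 28.2, 32.01 and 34.3 across the d/d libraries, again without overlap (2.01-fold, log2 change 0.98, SE 0.16, limma adjusted p = 0.0168). The call was lost without d/d replicate 2 (adjusted p 0.0606), d/d replicate 3 (0.0617) or f/f replicate 2 (0.0714). Mrpl12, on chr11:120484613-120489065 (plus strand), forms the flexible stalk that brings translation factors to the ribosome. It was at 20.0, 33.1 and 32.2 FPKM across the f/f libraries and 51.6, 54.3 and 61.0 across the d/d libraries, and f/f replicate 1 was the lowest of the 6 (1.96-fold, log2 change 0.97, SE 0.20, limma adjusted p = 0.0292). Of the fits with 1 library left out, only that without f/f replicate 1 kept the call, with adjusted p up to 0.0928 in the other 5. Without f/f replicate 1 the log2 change was 0.75 and the adjusted p 0.0145, and without both first replicates they were 0.80 and 0.0232.

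Mrpl46, on chr7:78775236-78783531 (minus strand), belongs to the central protuberance of the large subunit and has no bacterial counterpart. Its level was 10.5, 13.1 and 12.7 FPKM across the f/f libraries and 23.2, 20.4 and 27.7 across the d/d libraries (1.96-fold, log2 change 0.91, SE 0.15, limma adjusted p = 0.0148), and dropping f/f replicate 2 (adjusted p 0.0561) or f/f replicate 3 (0.0518) ended the call. Its gene starts head to head with that of Mrps11, a counterpart of bacterial S11, and the genes overlap by 413 bases. Of the 50-base stretches of Mrps11, 12.5% also occur in Mrpl46 transcripts. Mrps11 was at 10.2, 15.9 and 11.6 FPKM across the f/f libraries and 26.1, 16.2 and 17.4 across the d/d libraries. These groups also did not overlap, though by a narrow gap, and the log2 change of 0.61 (SE 0.23) did not pass the test (limma adjusted p = 0.129).

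The other 3 called members changed less. Mrps18a, on chr17:46110986-46128910 (plus strand), is among 3 members related to bacterial S18 and, despite its symbol, sits in the large subunit. Its gene overlaps that of the ciliary protein Rsph9 on the opposite strand over 6876 bases, but none of its 50-base stretches occurs in another gene's transcripts. Mrps18a was at 39.7, 49.5 and 45.9 FPKM across the f/f libraries and 72.4, 65.1 and 83.3 across the d/d libraries (1.63-fold, log2 change 0.70, SE 0.13, limma adjusted p = 0.0236), and kept its call only without d/d replicate 2 or f/f replicate 1 among the 6 fits with a library left out. Mrpl50, a mitochondrion-specific large-subunit protein on chr4:49512596-49521093 (minus strand), was at 12.9, 13.4 and 15.3 FPKM across the f/f libraries and 21.2, 21.01 and 24.4 across the d/d libraries (1.60-fold, log2 change 0.64, SE 0.12, limma adjusted p = 0.0202), and kept its call only when f/f replicate 1 or 3 was dropped. Mrpl20, on chr4:155802878-155809975 (plus strand), is the counterpart of a bacterial protein that binds ribosomal RNA early in assembly. It was at 23.8, 28.5 and 32.7 FPKM across the f/f libraries and 40.6, 39.9 and 42.0 across the d/d libraries (1.44-fold, log2 change 0.52, SE 0.13, limma adjusted p = 0.0487), and kept its call in 0 of the 6 fits. In all 3 genes the groups were apart, which is likely for genes picked by the test. The adjusted p with 1 library left out reached 0.0747 for Mrps18a, 0.0873 for Mrpl50 and 0.14 for Mrpl20. With both first replicates left out none of the 3 kept its call (adjusted p 0.0705 for Mrps18a, 0.0562 for Mrpl50 and 0.104 for Mrpl20).

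**Figure D2:**
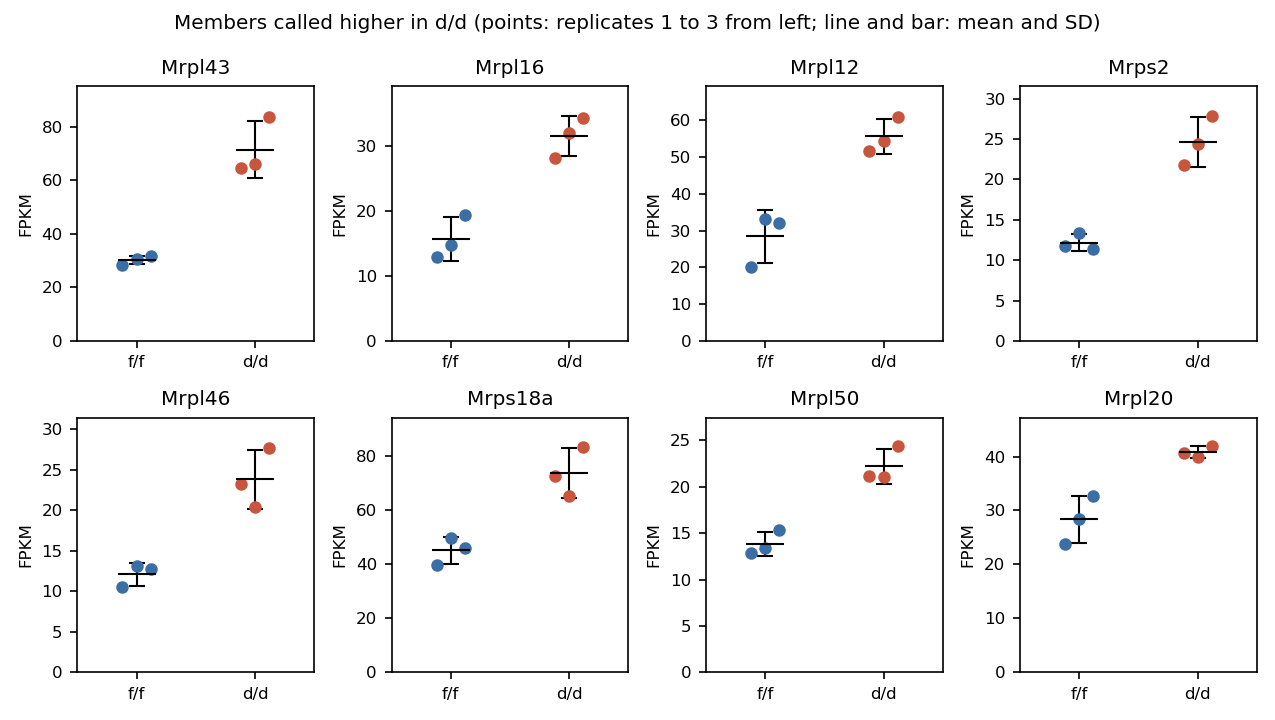
FPKM of the 8 members past the threshold (vertical axis, linear from 0) in each of the 3 f/f and 3 d/d libraries, with a line at each group mean and bars of 1 SD. In each of the 8 genes, which were picked by the test, all d/d points lie above all f/f points.

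Several members lay just outside the threshold. Mrpl14 (log2 change 0.59, limma adjusted p = 0.0518), Mrpl15 (0.52, limma adjusted p = 0.0527), Mrps34 (0.73, limma adjusted p = 0.0534) and Mrpl57 (0.93, limma adjusted p = 0.0600) were higher in every d/d library than in every f/f library. The first 3 passed the threshold when the libraries were rescaled by trimmed mean of M values, upper quartile or quantile normalization. These fits gave 11 called members each, with 6.42%, 6.43% and 6.68% of all features called higher. Rescaling to nuclear protein-coding genes gave 10 (5.14% of all features), without Mrpl15. Of the 3 genes only Mrps34 was called with 1 library left out, f/f replicate 3. Mrpl57 had the widest spread of the genes just outside the threshold. It was at 26.6, 35.1 and 20.98 FPKM across the f/f libraries and 39.1, 53.8 and 68.6 across the d/d libraries. Of Mrps34, 52.4% of the 50-base stretches also occur in Mapk8ip3, a gene on the opposite strand that was at 23.9 ± 1.60 FPKM under the f/f label and 20.6 ± 4.01 under the d/d label (SD, n = 3).

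Lower members were few. Mrpl39, a large-subunit protein with no bacterial counterpart, was at 14.6, 13.4 and 14.3 FPKM across the f/f libraries and 10.4, 10.8 and 11.8 across the d/d libraries, all 3 d/d libraries below all 3 f/f libraries, and its log2 change of -0.33 (95% interval -0.58 to -0.08) did not pass the test (limma adjusted p = 0.0902). Mrpl9, the counterpart of bacterial L9, was likewise lower in every d/d library, with 33.1, 32.8 and 34.7 FPKM across the f/f libraries and 28.2, 25.7 and 30.2 across the d/d libraries (log2 change -0.25, limma adjusted p = 0.146). The third such member, Mrps15, differed by -0.11 on the log2 scale (limma adjusted p = 0.468).

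The promoters are printed for the 2 members with the smallest adjusted p, for the called member with both an ETS and a YY1 match, and for the lower member Mrpl39. Each runs from 250 bases before to 50 after the start in RefSeq (GRCm38.p6), 5′ to 3′ on the gene's strand. Capitals mark the motifs searched, on either strand: CCGGAAG, the core bound by ETS factors such as GABP; AAGATGG, the core bound by YY1; and, in Mrpl39, the palindromic core bound by NRF1, all known for promoters of mitochondrial genes. The regions are chr19:45006393-45006692 (minus strand) for Mrpl43, chr2:28467816-28468115 (plus) for Mrps2, chr17:46110754-46111053 (plus) for Mrps18a and chr16:84735195-84735494 (minus) for Mrpl39.
Mrpl43: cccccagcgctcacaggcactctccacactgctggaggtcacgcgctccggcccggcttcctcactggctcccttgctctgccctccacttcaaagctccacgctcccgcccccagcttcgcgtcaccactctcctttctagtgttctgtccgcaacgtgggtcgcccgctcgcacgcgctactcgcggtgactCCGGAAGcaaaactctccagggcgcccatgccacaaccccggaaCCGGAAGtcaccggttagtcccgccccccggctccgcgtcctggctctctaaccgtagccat
Mrps2: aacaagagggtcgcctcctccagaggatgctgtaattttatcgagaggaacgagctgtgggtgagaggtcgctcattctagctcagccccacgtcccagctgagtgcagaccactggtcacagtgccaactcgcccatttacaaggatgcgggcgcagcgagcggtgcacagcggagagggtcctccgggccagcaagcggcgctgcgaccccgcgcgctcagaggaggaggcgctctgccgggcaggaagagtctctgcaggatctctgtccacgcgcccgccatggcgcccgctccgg
Mrps18a: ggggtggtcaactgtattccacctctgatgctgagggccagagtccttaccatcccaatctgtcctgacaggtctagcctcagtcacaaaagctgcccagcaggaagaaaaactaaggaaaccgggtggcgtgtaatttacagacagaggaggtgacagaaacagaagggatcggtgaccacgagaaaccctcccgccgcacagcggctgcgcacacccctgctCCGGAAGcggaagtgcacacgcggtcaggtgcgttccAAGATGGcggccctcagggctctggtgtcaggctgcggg
Mrpl39: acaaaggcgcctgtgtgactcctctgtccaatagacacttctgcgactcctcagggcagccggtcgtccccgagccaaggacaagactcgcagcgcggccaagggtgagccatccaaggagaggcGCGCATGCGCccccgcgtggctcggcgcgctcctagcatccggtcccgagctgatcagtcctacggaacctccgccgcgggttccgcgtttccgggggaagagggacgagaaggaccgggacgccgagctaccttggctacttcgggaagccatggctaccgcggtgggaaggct

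Mrpl43 holds the ETS letters at -56 and -12 from its start, Mrps18a the ETS letters at -26 and the YY1 letters at 12, Mrpl39 the NRF1 letters at -125, and Mrps2 none of them. RefSeq promoters were matched for 69 of the 78 members, 75 promoters in all. The ETS letters stood in 26 of the 75 (34.7%), against 8.86% of all 32851 promoters of that length in the table, and the YY1 letters in 13 (17.3%, against 6.34%). The NRF1 letters stood in 3 (4.0%, against 0.971%), those of Mrpl39, Mrpl9 and Mrpl32. The TATA-box letters TATAAA stood in 5 (6.67%, against 13.6%). Base composition differed too, with a median of 58.7% G and C in the members' promoters and 52.7% in all. Of the 25 tested members with the ETS letters 2 were called higher, Mrpl43 and Mrps18a, and the median log2 change of the 25 was 0.18. Of the 13 with the YY1 letters 1 was called higher (median 0.42), and of the 3 with the NRF1 letters 0 (-0.25). Of the 5 with the TATA-box letters 2 were called higher (0.44). Among all members tested 10.5% were called higher with a median of 0.21, and among all features 6.04% were called higher. A match is a description of the letters and not a binding site, and the absence of a match concerns only this window.

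The member values can also be set out by symbol series and by ancestry. The series are not the subunits, since Mrps18a and Mrps30 sit in the large subunit and Mrps36 is no longer counted as ribosomal. The 49 Mrpl genes tested had 6 called higher (12.2%), 0 called lower and a median log2 change of 0.20. The 27 Mrps genes tested had 2 higher (7.41%), 0 lower and a median of 0.36. Over all features 6.04% were called higher and 4.97% lower, so the Mrps share was near that of all features. The Mrps median was 0.21 without f/f replicate 1, 0.17 without both first replicates and 0.13 with library weights. The 45 members with a named bacterial counterpart had 4 called higher (8.89%) and a median of 0.15. The 31 others had 4 called higher (12.9%) and a median of 0.32. No difference between these groups of members was tested.

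Mrps12, Mrps22 and Mrps30 did not pass the test. Mrps12, the counterpart of bacterial S12 at the decoding centre, was at 33.6, 50.6 and 55.2 FPKM across the f/f libraries and 67.6, 56.6 and 59.9 across the d/d libraries, just without overlap (log2 change 0.42, limma adjusted p = 0.201). Mrps22, a mitochondrion-specific protein altered in human mitochondrial disease, was at 9.13 ± 1.47 FPKM under the f/f label and 10.8 ± 1.11 under the d/d label (SD, n = 3; log2 change 0.23, limma adjusted p = 0.355), with overlapping groups. Mrps30, which sits in the large subunit despite its symbol, was at 10.3 ± 0.649 and 14.1 ± 2.37 FPKM (SD, n = 3; log2 change 0.41, limma adjusted p = 0.113). Its groups did not overlap.

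The relatives of Mrps18a gave smaller differences with overlapping groups. Mrps18b was at 11.4, 20.7 and 10.1 FPKM across the f/f libraries and 17.97, 25.2 and 14.7 across the d/d libraries, with the second replicate highest in both groups (log2 change 0.46, limma adjusted p = 0.346). Mrps18c, the relative closest to the bacterial protein, was at 25.1, 26.9 and 34.5 FPKM across the f/f libraries and 22.0, 30.4 and 29.2 across the d/d libraries (log2 change -0.08, 95% interval -0.49 to 0.33). Mrpl58, a peptidyl-tRNA hydrolase that frees stalled mitochondrial ribosomes and is built into the large subunit, was at 74.5 ± 3.57 FPKM under the f/f label and 84.4 ± 9.62 under the d/d label (SD, n = 3; log2 change 0.17, 95% interval -0.10 to 0.44). Mrpl41, a large-subunit protein also reported in cell death control, was at 28.2 ± 5.83 and 30.8 ± 1.89 FPKM (SD, n = 3; log2 change 0.14, 95% interval -0.25 to 0.53).

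Levels per length differed widely among the members, from a mean of 1.49 to 265 FPKM over the 6 libraries, with a median of 27.3 against 12.6 for all features tested. In 65 of the 76 members every library was above 10 FPKM. The 5 most abundant members were Mrpl52, Mrpl33, Mrps21, Mrpl17 and Mrpl30, and none of them passed the test. Mrpl52, a mitochondrion-specific large-subunit protein, was at 181, 225 and 308 FPKM across the f/f libraries and 301, 254.7 and 321 across the d/d libraries (log2 change 0.32, limma adjusted p = 0.342). Its highest f/f library was above 2 of the d/d libraries. Mrpl33, a small protein with a bacterial counterpart, had a log2 change of 0.15, Mrpl17 one of 0.35, Mrpl30 one of -0.10 and Mrps21 one of -0.21, with overlapping groups in each. The signs of Mrps21 and Mrpl30 turned when 1 library was left out.

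The 5 least abundant members tested were Mrpl23, Mrps36, Mrps33, Mrpl47 and Mrpl1. Mrpl23 was at 1.77, 2.09 and 1.36 FPKM across the f/f libraries and 0.713, 1.53 and 1.46 across the d/d libraries, while its processed pseudogene Mrpl23-ps1, which shares 51.7% of its 50-base stretches, was at 68.2 to 103 FPKM in all 6 libraries. The functional gene was therefore listed far below its copy. The same held for Mrps33, at 2.31 to 7.58 FPKM beside 32.1 to 43.4 for the pseudogene Gm5776, which shares 14.5% of its stretches. Mrps36, now regarded as a subunit of the 2-oxoglutarate dehydrogenase complex and not of the ribosome, was at 1.22, 2.83 and 2.05 FPKM across the f/f libraries and 0.539, 1.25 and 1.97 across the d/d libraries (log2 change -0.45, limma adjusted p = 0.405) and shares stretches with 2 expressed pseudogenes. Values of these 3 genes are uncertain, since the authors' counting could divide their reads with the copies. Mrpl47 (log2 change 0.13) and Mrpl1 (0.23) had overlapping groups.

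Mrps10 and Mrps23, both of the small subunit, were listed at 0 in all 6 libraries and were not tested. A listed 0 may be an estimate that failed, and every respiring cell uses these proteins. The pseudogene Gm18736, which holds 16.4% of the 50-base stretches of Mrps10, was at 4.45 to 15.6 FPKM. No stretch of Mrps23 occurs in another gene.

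Shared sequence was common among the members. More than 30% of the 50-base stretches of 12 members occur in the transcripts of another gene, and 42 members share under 5%. Of the 41 tested members that share under 5%, 6 were called higher, 0 lower, and 34 had a log2 change above 0, with a median of 0.23. Of the 35 tested that share more, 2 were called higher, with a median of 0.18. Over all features 6.04% were called higher. Opposite-strand matches between protein-coding transcripts of 2 members were not counted. The share of Mrpl46, which overlaps Mrps11 and was counted under 5%, may therefore be too low. The genes of 26 members overlap another protein-coding gene, and of these 3 were called higher with a median of 0.25, beside 5 of the other 50 with a median of 0.19.

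The position of each library showed how much of the shift lay in 1 library of each group. The median over members of a library's deviation from the gene means (log2 scale) was -0.30, -0.05 and -0.04 across f/f replicates 1 to 3, against 0.11, -0.01 and 0.24 across d/d replicates 1 to 3. The first f/f library was the lowest of the 6 for 43 of the 76 members (56.6%, against 21.1% of all features), and the third d/d library was the highest for 43 (56.6%, against 17.8%). The second d/d library lay near f/f replicates 2 and 3. The summed FPKM of all members overlapped between groups, at 2307, 2724 and 2927 across the f/f libraries and 3157, 2925 and 3546 across the d/d libraries. Without f/f replicate 1 the median log2 change of the members was 0.16, and 53 of 76 were above 0.

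**Figure D3:**
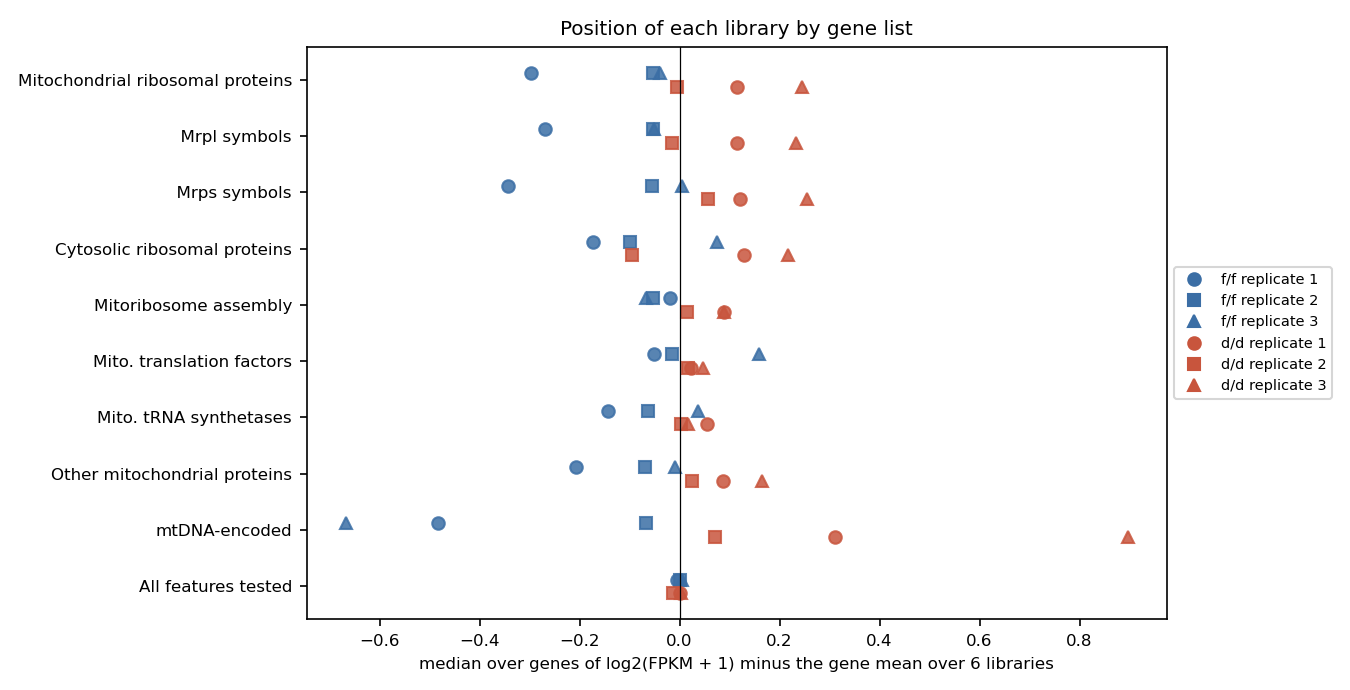
Median over each gene list of log2(FPKM + 1) minus the gene's mean over 6 libraries (horizontal axis), 1 point per library, f/f in blue and d/d in red with a marker shape per replicate. For the mitochondrial ribosomal proteins f/f replicate 1 lies at -0.30 and d/d replicate 3 at 0.24, and for all features tested the 6 points lie near 0.

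Other cell type and cell state markers moved beside the members. All 8 macrophage markers were higher in every d/d library than in every f/f library, with a summed level of 364 to 470 FPKM in f/f and 1040 to 1387 in d/d. Of the dividing-cell markers, 6 of 7 tested were higher in every d/d library (summed level 33.7 to 43.0 FPKM against 63.5 to 89.8). Of the lymphocyte markers this held for 2 of 4 tested (7.35 to 9.86 FPKM against 12.6 to 19.6). Among all features tested, 18.1% were higher and 17.4% lower in every d/d library than in every f/f library. Ciliated epithelium markers overlapped between groups in 8 of 8, at 268 to 645 FPKM in f/f and 87.0 to 388 in d/d, with f/f replicate 1 highest and d/d replicate 1 lowest. Smooth muscle markers summed to 2109 to 5098 FPKM in f/f, with replicate 1 lowest, and 2635 to 4303 in d/d. Of the 6, Des, the muscle intermediate filament gene, was lower in every d/d library (285 ± 96.1 against 111 ± 27.02 FPKM, SD, n = 3). Single epithelial and fibroblast markers also separated the groups. Epcam (1.52-fold), Cdh1 (1.37-fold) and Muc1 (2.94-fold) were higher in all d/d libraries, while Krt8 and Krt18 were lower, and Ovgp1 and Pax8 overlapped. Lum was higher (1.74-fold) and Pdgfra lower, at 42.5 ± 2.89 against 22.8 ± 5.11 FPKM (SD, n = 3). The sums of the secretory list, most of which is Ovgp1, and of the fibroblast and endothelial lists overlapped between groups (4806 to 6326 against 3239 to 5673, 2263 to 2693 against 2186 to 3345, and 91.3 to 110 against 91.1 to 117 FPKM). Steroidogenic ovary markers reached 36.1 FPKM in f/f replicate 3 and at most 8.43 elsewhere, fat markers reached 32.01 in f/f replicate 1 and at most 9.89 elsewhere with Ucp1 at or near 0, and early embryo markers summed to at most 0.624. The part of any of these cells in the members' values was not tested.

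The ribosomal RNAs with which the members assemble are read from mitochondrial DNA. The small rRNA gene mt-Rnr1 was at 332.5, 309.5 and 266.7 FPKM across the f/f libraries and 349, 414 and 745 across the d/d libraries, every d/d library higher, but did not pass the test (log2 change 0.66, limma adjusted p = 0.176). The large rRNA gene mt-Rnr2 was at 287, 330 and 306 FPKM across the f/f libraries and 223, 265 and 464 across the d/d libraries (log2 change -0.03). In both, d/d replicate 3 was well above the other 5 libraries. Of the 15 genes for mitochondrial mRNAs and rRNAs, 11 were tested, with a median log2 change of 0.82. Not tested were mt-Co2, mt-Atp6, mt-Atp8 and mt-Nd4l, with means of 0.72, 0.56, 0 and 0.72 FPKM. Such low values may be estimates that failed, which limits this median and the share of FPKM given below. Of the 11 genes tested, 2 were called higher (18.2%, against 6.04% of all features) and 0 lower. The called genes were mt-Nd2 (1.59, limma adjusted p = 0.0251) and mt-Nd1 (1.27, limma adjusted p = 0.0476), both subunits of respiratory complex I, and 0 were called with any 1 library left out. Features of mitochondrial DNA held 3.61% to 5.70% of all FPKM in f/f and 6.50% to 9.70% in d/d. Rescaled to nuclear protein-coding genes, the members gave 10 calls and a median of 0.18. In that fit 5.14% of all features were called higher, and the median over all features moved too, from -0.01 to -0.04.

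Other proteins of mitochondrial translation were taken as lists. Of 5 tested ribosome components whose symbols the rule does not catch, 1 rose. This was Chchd1 of the small subunit, at 48.4, 60.0 and 61.1 FPKM across the f/f libraries and 86.1, 85.7 and 97.7 across the d/d libraries (1.59-fold, limma adjusted p = 0.0224), called without f/f replicate 1 and not with any other library left out. The list's median log2 change was 0.24. Of 26 tested genes of ribosome assembly and rRNA modification, 2 rose and 0 fell, with a median of 0.05. These 2 were 7.69% of the list, near the 6.04% of all features called higher. They were Mrm3, which methylates the large rRNA, at 3.30, 2.96 and 2.40 FPKM across the f/f libraries and 6.42, 8.57 and 8.40 across the d/d libraries (log2 change 1.18, limma adjusted p = 0.0119), and Rbfa, a maturation factor of the small subunit (0.51, limma adjusted p = 0.0423). Leaving out 1 library gave 0 to 1 calls.

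Of 17 tested translation factors and messenger RNA handlers, Coa3 rose (log2 change 0.66, limma adjusted p = 0.0487) and 0 fell, with a median of 0.07, and 0 were called with any library left out. This 1 call was 5.88% of the list, near the 6.04% of all features called higher. Coa3 takes part in the making of cytochrome c oxidase. The 20 mitochondrial aminoacyl-tRNA synthetases and amidotransferase subunits had 0 calls at limma's adjusted threshold and a median of 0.10. At an unadjusted p under 0.05, 5 of them were higher and 1 lower, against 15.4% and 14.2% of all features. The most abundant members of this list by FPKM were Fars2 (log2 change 0.12) and Lars2 (-0.07). Of 16 genes of mitochondrial DNA transcription and replication, 1 fell (6.25%, against 4.97% of all features) and 0 rose, with a median of 0.12. The fall was that of Mterf1b, a near-identical copy of Mterf1a whose reads could be divided between them, at 2.35, 1.83 and 1.59 FPKM across the f/f libraries and 0.736, 0.434 and 0.429 across the d/d libraries (log2 change -0.93, limma adjusted p = 0.0469), called with a library left out only without f/f replicate 1.

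The proteins of the cytosolic ribosome, measured the same way, had 2 of 76 tested called higher and 0 called lower. Their median log2 change was 0.16, with 57 of 76 above 0, against 48.8% of all features above 0. The called share was 2.63%, below the 6.04% of all features called higher. The calls were Rpl31 (0.67, limma adjusted p = 0.0280) and Rps19bp1 (0.77, limma adjusted p = 0.0389), the latter a binding partner of a ribosomal protein that the symbol rule took in, and leaving out 1 library gave 0 to 1 higher calls. Their library medians ran from -0.17 in f/f replicate 1 to 0.22 in d/d replicate 3, with d/d replicate 2 at -0.09 beside f/f replicate 2 at -0.10. The first f/f library was thus lowest and the third d/d library highest for both kinds of ribosome. The difference between the 2 kinds was not tested.

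Many members share a start region with a second gene. A protein-coding gene on the other strand started within 1000 bases of 23 members, with at most 300 bases of overlap, and in 21 pairs both genes were tested. In these pairs 17 members and 9 partners had a log2 change above 0, with medians of 0.21 and -0.14, and the pair moved in the same direction in 9 of 21. Of these 21 members 1 passed the test, Mrpl50, and 0 of the partners did with limma. Over all features 6.04% were called higher and 4.97% lower. Pairs with a longer overlap were left out, among them the called members Mrpl43 with Twnk and Mrpl46 with Mrps11. There both genes of each pair had a log2 change above 0 (1.21 and 0.33, 0.91 and 0.61). The signs differed in Mrpl13 with Mtbp, Mrpl14 with Tmem63b, Mrpl18 with Tcp1, Mrpl47 with Ndufb5 and Mrpl48 with Rab6a. Zfp189, which starts 83 bases from Mrpl50, was at 3.38, 2.64 and 1.90 FPKM across the f/f libraries and 3.91, 2.44 and 2.03 across the d/d libraries, with overlapping groups. The widest split was that of Mrps34 and the endonuclease subunit gene Eme2, whose starts lie 29 bases apart. Eme2 was at 8.06, 8.86 and 10.4 FPKM across the f/f libraries and 5.37, 6.61 and 5.44 across the d/d libraries (log2 change -0.57, limma adjusted p = 0.0534), lower in every d/d library, where Mrps34 was higher. Mrps12 (0.42) and its neighbour Sars2 (-0.23), the mitochondrial seryl-tRNA synthetase, differed in sign in the same way, although neither passed the test. No difference within a pair was tested.

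**Figure D4:**
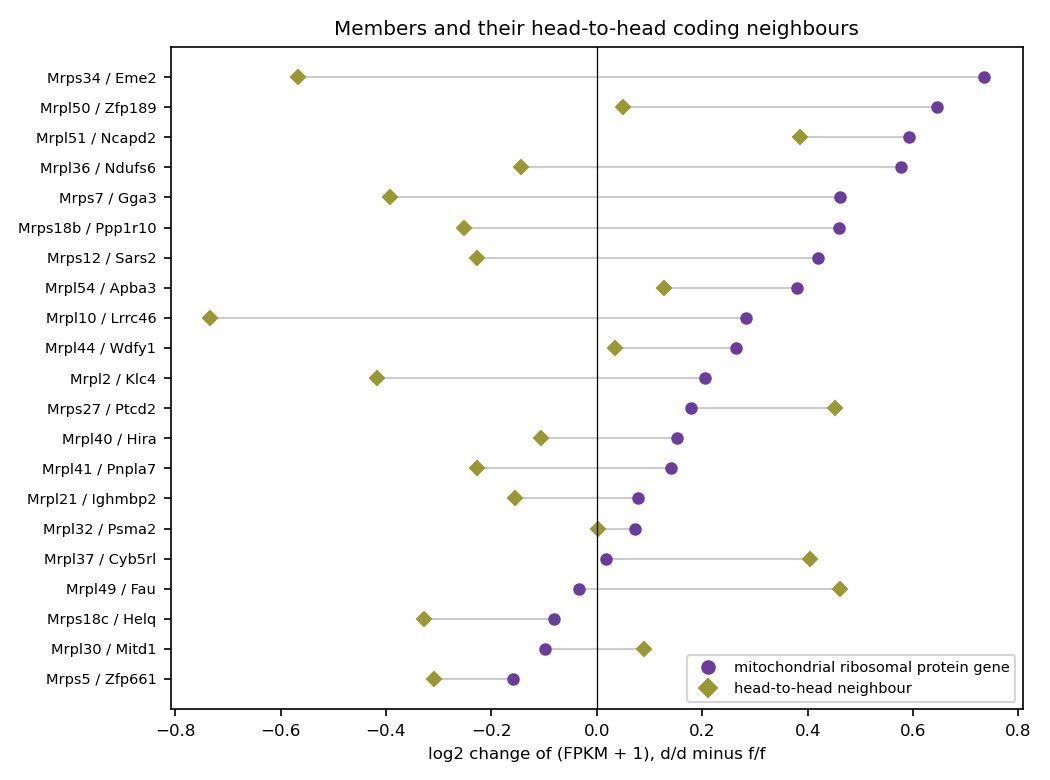
Log2 change, d/d minus f/f on the log2(FPKM + 1) scale, of the 21 members (circles) and their head-to-head coding neighbours (diamonds), joined by a line per pair. The member points have a median of 0.21 and the neighbours a median of -0.14, and 9 of 21 pairs lie on the same side of 0.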

How the data were processed

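Per the labels' protocols, TRIzol was used for the extraction and a TruSeq kit for the libraries. Whether the kit kept strand is not given in the sources used here. The deposited values were read as FPKM made by the authors, with a row for each Ensembl gene. The unit is inferred from their decimals, from library totals that differ, and from Cufflinks 2.2.1, named per the submitters' processing notes beside HISAT2 2.2.1 and the builds mm9 and mm10, with no role given. No counts were used, so no count model was fitted. Coordinates are those of GENCODE M21 (GRCm38), which held 99.5% of the 55483 identifiers.

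Values were summed over rows with the same symbol (114 symbols). The limma test (version 3.58.1, R 4.3.3, eBayes with a variance trend) compared d/d with f/f on log2(FPKM + 1) over features whose mean reached 1 FPKM. Genotype alone was in the model, and tests were two-sided, with Benjamini-Hochberg adjustment over all 15438 features and a threshold of 0.05. Folds are ratios of group mean FPKM, and log2 changes understate the change of low genes. The fit was tested on simulated data. Shared sequence was counted as stretches of 50 bases of a member's transcripts found in transcripts of another gene. Fragment numbers were read from the lowest steps of FPKM times length. The fragments behind a member in its lowest library were about 348 at the median and 4 at the lowest, and 5 members had under 100, all approximate.

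The members and gene lists were chosen with earlier results of these data known, and lists are described by counts and medians with no test. Named members were those past the threshold, the 5 most and 5 least abundant, those not tested, and Mrps12, Mrpl12, Mrps22, Mrps30, Mrpl41, Mrps36, Mrps18a, Mrps18b, Mrps18c and Mrpl58. From other lists up to 4 past the threshold were named, or the 2 most abundant where none passed. Mrpl14, Mrpl15, Mrps34, Mrpl57, Mrps11, Mrpl39, Mrpl9, Mrps15, Mrpl32, Krt8, Pax8, Ovgp1 and the neighbouring or copied genes were chosen after their values were seen. So were Mrpl13, Mrpl18 and Mrpl48. Alternatives were a pseudocount of 0.1, no filter, a minimum mean of 5 FPKM, 4 other scalings, no variance trend, library weights, 1 row per symbol, a replicate block and each library left out; leaving out both first replicates was added after seeing the data.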

Additional observations from a re-analysis of the deposited data

How the results depend on the processing

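The median log2 change of the members was above 0 and the number of members called lower was 0 under every alternative run. The number called higher is given with the share of all features called higher in the same fit. It was 8 (6.04%), 15 with library weights (11.3%) and 2 with a replicate block, Mrpl16 and Mrpl43 (1.13%). It was 5 with both first replicates left out (5.23%) and 2 to 7 with 1 library left out (1.19% to 6.13%). All features called in either direction numbered 1701, 3312 with library weights and 276 with a replicate block. They numbered 1107 with no filter and 308 to 1795 with 1 library left out. The Mrps median was 0.36, 0.13 with library weights, 0.17 with both first replicates left out, and 0.21 to 0.35 with 1 library left out. Same-numbered replicates deviated together with correlations of -0.22, -0.058 and 0.003, so the numbers were not taken to pair the samples, and the block is given only here.

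With 1 library or both first replicates left out, the sign turned for 6 of the single genes recomputed, none of which passed limma's threshold in these fits, and the cause was not tested. Their log2 changes ran from -0.44 (both first replicates left out) to 0.051 (f/f replicate 3 left out) for Mrps21, from -0.24 (f/f replicate 3) to 0.056 (d/d replicate 2) for Mrpl30, from -0.028 (f/f replicate 1) to 0.25 (f/f replicate 3) for Mrpl47, from -0.17 (f/f replicate 1) to 0.059 (d/d replicate 1) for Mrps18c and from -0.34 (both) to 0.26 (f/f replicate 3) for Lars2. Mrpl41 was at -0.032 with f/f replicate 1 left out and -0.034 with both. The 3 libraries per group limit what limma can call, and low members such as Mrpl23 and Mrps36 rest on few fragments.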

Other observations

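Of 12 factors known to act on nuclear genes for mitochondrial proteins, 4 rose with limma and 0 fell, with a median log2 change of 0.18, beside 6.04% of all features called higher. Ppargc1a, which encodes the coactivator PGC-1 alpha, was at 3.06, 1.94 and 1.56 FPKM across f/f replicates 1 to 3, against 5.94, 5.03 and 5.14 across d/d replicates 1 to 3 (log2 change 1.02, adjusted p = 0.0296). Mycn, a transcription factor of the Myc family, was at 1.05, 1.40 and 0.826 FPKM across the f/f libraries and 2.62, 3.83 and 3.16 across the d/d libraries (1.01, limma adjusted p = 0.0308). Pprc1, a relative of Ppargc1a, was at 5.65, 8.47 and 6.89 FPKM across the f/f libraries and 12.3, 13.5 and 10.96 across the d/d libraries (0.74, limma adjusted p = 0.0367). Gabpb1, a subunit of the ETS factor GABP, was at 9.60, 10.5 and 9.26 FPKM across the f/f libraries and 16.3, 14.5 and 18.6 across the d/d libraries (0.69, limma adjusted p = 0.0209). In all 4 the groups did not overlap, which is likely for genes picked by the test and is no further support. With 1 library left out, 0 to 2 of the 12 were called.

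Of 20 other mitochondrial proteins, among them import subunits, matrix chaperones and enzymes of the citric acid cycle, 3 rose and 0 fell. These calls stand beside 6.04% of all features called higher and 4.97% called lower. The median log2 change was 0.16, and 18 of 20 were above 0, against 48.8% of all features. The chaperones Hspe1 (0.80, limma adjusted p = 0.0493) and Hspa9 (0.51, limma adjusted p = 0.0204) and the import subunit Timm50 (0.49, limma adjusted p = 0.0385) were called. With 1 library left out, 0 to 1 were called.

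The cell proliferation regulator gene Urgcp, which overlaps the member Mrps24, rose from 14.7 ± 0.836 to 24.1 ± 1.75 FPKM (SD, n = 3; log2 change 0.67, limma adjusted p = 0.0138), while Mrps24 was at 62.0 ± 8.41 under the f/f label and 85.4 ± 17.3 under the d/d label (log2 change 0.44, limma adjusted p = 0.162). Both lie on the same strand and overlap over 2264 bases, but none of the 50-base stretches of Mrps24 transcripts occurs in another gene.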
